A study of Mus musculus with 12 samples.

Results

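The elastic fiber and lysyl oxidase genes described here are Eln, Lox, Loxl1, Loxl2, Fbln5, Fbln2, Fbn1, Mfap4, Emilin1 and Efemp2. They were chosen by name, 10 of the 54134 genes listed in a table of reads per gene, and each symbol had 1 gene identifier. The table came from RNA-seq of inguinal white adipose tissue (iWAT), the subcutaneous fat of the groin, from 12 male C57BL/6J mice, 6 in each of 2 groups. AAV-GFP mice received an adeno-associated virus that carried green fluorescent protein, and AAV-Notum mice received the same kind of virus carrying Notum, a secreted deacylase that removes a lipid from Wnt ligands. All 12 mice thus carried a virus, given into the tail vein at 8 weeks of age in a dose of 1e12 genome copies, were fed chow for the 4 weeks that followed and were fasted for 4 h before the tissue was taken. The virus was of serotype AAV8 and its transgene stood under the thyroxine binding globulin promoter, which is active in hepatocytes, so that iWAT was exposed to what the liver released. The comparison asked how the transcripts of iWAT differed between mice with Notum and mice with GFP made in the liver.

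Elastic fibers give stretched tissue its recoil and consist of a core of cross-linked elastin on a scaffold of microfibrils, which are built from fibrillin. Fibulins and related glycoproteins bring tropoelastin, the soluble monomer, to the microfibril and to the enzymes of the lysyl oxidase family, which oxidize lysines so that elastin and collagen chains become covalently linked. In adipose tissue the cells that make these proteins include stromal and vascular cells, and cross-linked matrix surrounds the adipocytes.

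The level of a gene is given as CPM, the counts of the gene scaled to a common library size after TMM normalization. Of the 10 genes, 9 had enough reads to be tested, and Mfap4 did not pass the filter on low counts. All 9 had a log2 fold change below 0 in AAV-Notum mice, from -1.13 to -0.19, with a median of -0.35, where 48.8% of all genes tested were below 0 and their median was 0.00773. At an unadjusted p under 0.05 in edgeR's quasi-likelihood test, 5 of the 9 (Lox, Fbln5, Eln, Fbln2 and Loxl2) were lower and none was higher, against a background of 9.54% of all 15585 genes called lower by that rule. After Benjamini-Hochberg adjustment over all genes, edgeR called 0 of the 9, with adjusted p from 0.0847 to 0.512, and 0.0513% of all genes were called lower. DESeq2 called 4 of the 9 lower (Lox, Eln, Fbln5 and Fbln2) at an adjusted p under 0.05, with a background of 2.32%, and limma-voom called 0. Every AAV-Notum mouse lay below every AAV-GFP mouse for 3 of the 9 (Eln, Lox and Fbln5), which held for 0.693% of all genes tested.

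**Figure D1:**
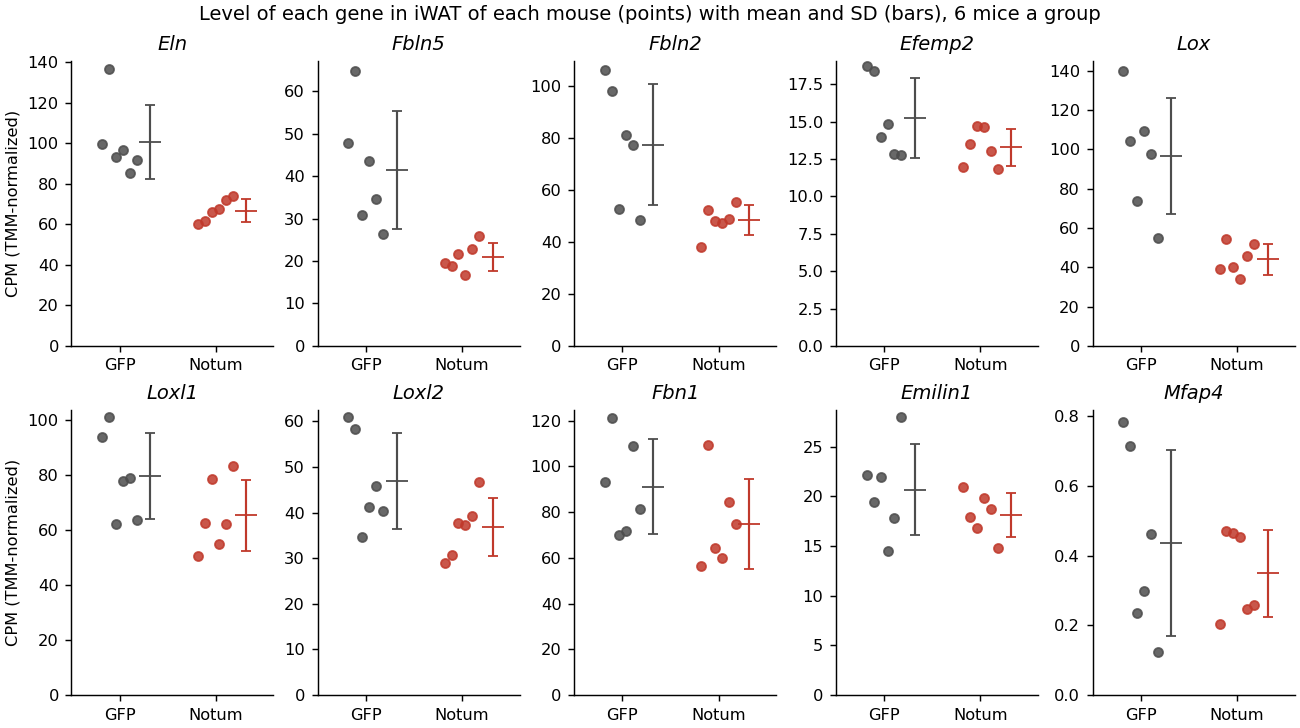
Each panel plots the TMM-normalized CPM of 1 gene from a baseline of 0, with a point for each of the 6 mice of a group (grey, AAV-GFP; red, AAV-Notum) and the mean with its SD as a bar beside them. The groups are fully apart for Eln, Lox and Fbln5, where the lowest AAV-GFP mouse has 85.4, 54.7 and 26.4 CPM and the highest AAV-Notum mouse 73.9, 54.2 and 25.8 CPM.

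Total counts per library ran from 15266635 to 21618860 in AAV-GFP and from 14711113 to 17838229 in AAV-Notum mice, and the RNA integrity number ran from 5.7 to 7.6 and from 6.9 to 7.4. The RNA of AAV-GFP-2012 was isolated 20 days after that of the other mice. Adipocyte markers were abundant in every library, with a summed level of 37478 to 65497 CPM in AAV-GFP and 33991 to 77348 CPM in AAV-Notum mice. Their log2 fold changes were below 0 for 8 of 10 and above 0 for 2, with a median of -0.25, and 0 passed an unadjusted p under 0.05. The 15 lymphoid markers, genes of B and T cells, summed to 8.88 to 1827 CPM in AAV-GFP and 592 to 2600 CPM in AAV-Notum mice, and AAV-GFP-2011 and AAV-GFP-2014 were the mice with almost none. Hepatocyte markers summed to 303 to 5825 and 177 to 978 CPM, and 1 of 10 (Alb) was lower at an unadjusted p under 0.05. Skeletal muscle markers summed to 11.4 to 1009 CPM (median 147.7) and 11.3 to 4734 CPM (median 40.2), and 0 of 10 passed that threshold. Notum itself had 1 to 17 reads in iWAT of AAV-GFP mice and 8 to 560 in AAV-Notum mice, with medians of 3.5 and 13.0.

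Eln encodes tropoelastin, the monomer of the elastin core (ENSMUSG00000029675, GRCm38 chr5:134702593-134747323, minus strand). Its level ran from 85.4 to 136.7 CPM in AAV-GFP mice, with a median of 94.8, and from 59.9 to 73.9 CPM in AAV-Notum mice, with a median of 66.7. The groups did not overlap, and 1 AAV-GFP mouse, AAV-GFP-2012, stood above the rest. Mean Eln was 100.5 ± 18.4 CPM with GFP and 66.8 ± 5.53 CPM with Notum (SD, n = 6 each), 33.6% lower by the fitted log2 fold change of -0.59 (standard error 0.11, edgeR adjusted p = 0.0909). The two-sided exact permutation test over mice gave p = 0.00216 for Eln, the smallest p that 6 mice against 6 allow, and DESeq2 gave an adjusted p of 3.24e-04. Without AAV-GFP-2012 the log2 fold change of Eln was -0.48 (edgeR adjusted p = 0.0833).

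Lox encodes lysyl oxidase, the enzyme that starts the cross-linking of elastin and fibrillar collagens (ENSMUSG00000024529, GRCm38 chr18:52516067-52529867, minus strand). It had the largest difference of the 9 genes. Lox ran from 54.7 to 139.5 CPM (median 100.8) in AAV-GFP mice and from 33.8 to 54.2 CPM (median 42.8) in AAV-Notum mice. The lowest AAV-GFP mouse, AAV-GFP-2022, lay just above the highest AAV-Notum mouse, so that the groups were apart by a narrow gap. The means were 96.5 ± 29.5 and 44.1 ± 7.86 CPM (SD, n = 6 each), a log2 fold change of -1.13 (standard error 0.20, edgeR adjusted p = 0.0847) or 54.3% less transcript, with an exact permutation p of 0.00216 and a DESeq2 adjusted p of 8.97e-05.

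Loxl1 and Loxl2 encode relatives of lysyl oxidase, of which Loxl1 is tied to elastin and Loxl2 acts mainly on basement membrane and fibrillar collagen. Loxl1 (ENSMUSG00000032334, chr9:58287738-58313186, minus strand) ran from 62.0 to 100.9 CPM (median 78.2) in AAV-GFP and from 50.5 to 83.1 CPM (median 62.1) in AAV-Notum mice. The groups overlapped over much of this range, and the log2 fold change of -0.28 (95% interval -0.62 to 0.05, edgeR adjusted p = 0.405, exact permutation p = 0.123) was within the spread between mice. Loxl2 (ENSMUSG00000034205, chr14:69609068-69695834, plus strand) ran from 34.6 to 60.9 CPM (median 43.5) in AAV-GFP and from 29.0 to 46.7 CPM (median 37.5) in AAV-Notum mice. For Loxl2 the fitted log2 fold change was -0.35 (95% interval -0.69 to -0.01, edgeR adjusted p = 0.340), and the exact permutation p was 0.0779. The unadjusted call of Loxl2 was lost in 16 of 25 alternative settings, among them leaving out any 1 of AAV-GFP-2011, AAV-GFP-2012, AAV-GFP-2021, AAV-Notum-2031, AAV-Notum-2032, AAV-Notum-2033, AAV-Notum-2034 or AAV-Notum-2041, where its log2 fold change lay between -0.26 and -0.37. The unadjusted p of Loxl1 came under 0.05 without AAV-GFP-2013 (log2 fold change -0.35) and without AAV-Notum-2042 (log2 fold change -0.37). With the marker covariates described below, the log2 fold change of Loxl1 was -0.05 (smooth muscle), -0.02 (endothelial), -0.28 (fibroblast) and -0.13 (lymphoid).

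Fbln5 encodes fibulin-5, which binds tropoelastin, integrins and lysyl oxidase-like 1 and is needed for elastic fiber assembly (ENSMUSG00000021186, chr12:101746565-101819055, minus strand). Its level ran from 26.4 to 64.7 CPM (median 39.1) in AAV-GFP and from 16.6 to 25.8 CPM (median 20.6) in AAV-Notum mice. The groups did not overlap, and AAV-GFP-2012 was again the highest. The means of 41.4 ± 13.9 and 20.9 ± 3.26 CPM (SD, n = 6 each) corresponded to a log2 fold change of -0.98 (standard error 0.20, edgeR adjusted p = 0.105) or 49.4% less transcript (exact permutation p = 0.00216, DESeq2 adjusted p = 0.00102).

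Fbln2 encodes fibulin-2, a glycoprotein of basement membranes and elastic fibers in vessel walls (ENSMUSG00000064080, chr6:91212455-91272540, plus strand). It ran from 48.6 to 106 CPM (median 79.3) in AAV-GFP and from 38.3 to 55.5 CPM (median 48.5) in AAV-Notum mice. The groups overlapped through AAV-GFP-2013 and AAV-GFP-2022, the 2 lowest AAV-GFP mice, and 3 of 6 AAV-Notum mice lay below every AAV-GFP mouse. Fbln2 had a log2 fold change of -0.68 (standard error 0.19, edgeR adjusted p = 0.160), the exact permutation p was 0.0195 and the DESeq2 adjusted p was 0.0301. Efemp2, or fibulin-4, which like fibulin-5 takes part in elastic fiber assembly (ENSMUSG00000024909, chr19:5473954-5482517, plus strand), ran from 12.7 to 18.7 CPM (median 14.4) in AAV-GFP and from 11.8 to 14.7 CPM (median 13.3) in AAV-Notum mice. The groups overlapped, and its log2 fold change of -0.20 (95% interval -0.46 to 0.06, edgeR adjusted p = 0.434, exact permutation p = 0.143) did not pass the test. Efemp2 shares 4.57% of its exon bases with Mus81 on the opposite strand, whose reads cannot be told apart from its own there, since the strand setting of the counting is not given in the sources used here.

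The bases upstream of Fbln5 and Fbln2 are shown because these are the members of largest fold change with a RefSeq promoter entry. The windows are the 250 bases before an annotated start in RefSeq's GRCm38.p6, written 5′ to 3′ on the strand of the gene, and capitals mark the letters searched for. Fbln5 has 2 such starts, at chr12:101819120-101819369 and chr12:101818485-101818734 (both minus strand), and Fbln2 has 1, at chr6:91212514-91212763 (plus strand).
Fbln5, first window: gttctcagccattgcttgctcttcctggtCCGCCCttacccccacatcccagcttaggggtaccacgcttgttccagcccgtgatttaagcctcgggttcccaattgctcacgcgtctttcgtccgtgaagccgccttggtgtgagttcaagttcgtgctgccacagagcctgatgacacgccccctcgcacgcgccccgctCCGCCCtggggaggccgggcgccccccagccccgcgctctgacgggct
Fbln5, second window: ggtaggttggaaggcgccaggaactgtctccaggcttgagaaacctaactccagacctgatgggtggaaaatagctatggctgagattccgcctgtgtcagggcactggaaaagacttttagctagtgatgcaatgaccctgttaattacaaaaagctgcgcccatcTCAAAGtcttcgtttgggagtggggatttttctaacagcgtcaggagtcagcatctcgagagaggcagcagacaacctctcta
Fbln2: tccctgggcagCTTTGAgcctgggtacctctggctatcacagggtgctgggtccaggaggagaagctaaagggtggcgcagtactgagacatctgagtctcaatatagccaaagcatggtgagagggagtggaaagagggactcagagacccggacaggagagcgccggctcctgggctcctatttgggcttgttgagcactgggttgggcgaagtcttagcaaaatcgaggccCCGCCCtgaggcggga

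The motifs searched on both strands were the TATA box TATAAA, the GC box GGGCGG, the E box CACGTG, the AP-1 site TGACTCA and CTTTGA, the core of the motif bound by TCF/LEF factors of the Wnt pathway. They are found in 12.4%, 32.7%, 6.02%, 4.46% and 13.8% of all 32851 windows of that length, in this order, and the matches printed did not overlap each other. The first Fbln5 window holds the GC box on the opposite strand (CCGCCC) at 221 and 48 bases before the start, and the second holds TCAAAG, the TCF/LEF core on the opposite strand, at 83 bases before the start. The Fbln2 window holds CTTTGA at 239 bases and CCGCCC at 16 bases before the start. Among the other members with an entry, the GC box was matched in the windows of Fbn1 and Efemp2, and none of the 5 motifs was matched in that of Emilin1, which says only that these letters are not in that window. No entry was matched for Eln, Lox, Loxl1, Loxl2 and Mfap4. A match is a stretch of letters and was not tested as a binding site.

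Fbn1 encodes fibrillin-1, the main protein of the microfibril (ENSMUSG00000027204, chr2:125300594-125507993, minus strand). It ran from 70.0 to 121 CPM (median 87.2) in AAV-GFP and from 56.2 to 109 CPM (median 69.5) in AAV-Notum mice. The groups overlapped widely, with AAV-Notum-2032 as high as the upper AAV-GFP mice. The log2 fold change was -0.28 (95% interval -0.69 to 0.12, edgeR adjusted p = 0.465, exact permutation p = 0.167). Without AAV-Notum-2032 it was -0.42 with an unadjusted edgeR p of 0.0266. Without AAV-GFP-2012 it was -0.18 with an unadjusted edgeR p of 0.335. Over the 25 alternatives it ran from -0.42 to -0.16. Fbn1 shares 20.1% of its exon bases with Gm9913 on the opposite strand, which had 38 reads over all mice.

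Emilin1 encodes a glycoprotein at the interface of elastin and microfibrils (ENSMUSG00000029163, chr5:30913402-30921277, plus strand). It ran from 14.5 to 28.0 CPM (median 20.7) in AAV-GFP and from 14.8 to 21.0 CPM (median 18.3) in AAV-Notum mice, so that every AAV-Notum mouse was within the AAV-GFP range. Its log2 fold change of -0.19 (95% interval -0.50 to 0.13, edgeR adjusted p = 0.512, exact permutation p = 0.299) was the smallest of the 9 with all mice. On leaving out single mice, that of Emilin1 ran from -0.27 (without AAV-GFP-2014) to -0.08 (without AAV-GFP-2022). Mfap4, a microfibril-associated glycoprotein (ENSMUSG00000042436, chr11:61485431-61488900, plus strand), had 2 to 14 reads per AAV-GFP mouse and 4 to 9 per AAV-Notum mouse, or 0.436 ± 0.267 and 0.349 ± 0.126 CPM (SD, n = 6 each). A difference was not detectable at this depth (log2 CPM difference -0.14, exact permutation p = 0.665), and its sign turned without AAV-GFP-2011 or AAV-GFP-2012 (0.0332 and 0.00981). Mfap4 shares 4.63% of its exon bases with Mapk7 on the opposite strand, which had 3953 reads over all mice.

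Levels of different genes were compared as CPM per kb of exon, which takes gene length into account. In AAV-GFP mice the order of the means was Loxl1 (24.1), Lox (20.2), Eln (12.4), Fbln2 (12.2), Loxl2 (8.67), Fbn1 (7.51), Fbln5 (5.99), Emilin1 (4.19), Efemp2 (4.03) and Mfap4 (0.227). The ranges over mice overlapped between every pair of neighbours in that order except Efemp2 and Mfap4. In AAV-Notum mice Loxl1 (19.8) stood above Lox (9.22) without overlap, so the enzymes that neighbored each other in AAV-GFP mice were apart, and Eln (8.24), Fbln2 (7.60), Loxl2 (6.80) and Fbn1 (6.17) followed with overlapping ranges. Fbn1 lay above Emilin1 (3.68) without overlap, and Efemp2 (3.51) and Fbln5 (3.03) overlapped with Emilin1 and each other. Fbln5 was thus the seventh of the 10 per length in AAV-GFP mice and the ninth in AAV-Notum mice.

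**Figure D2:**
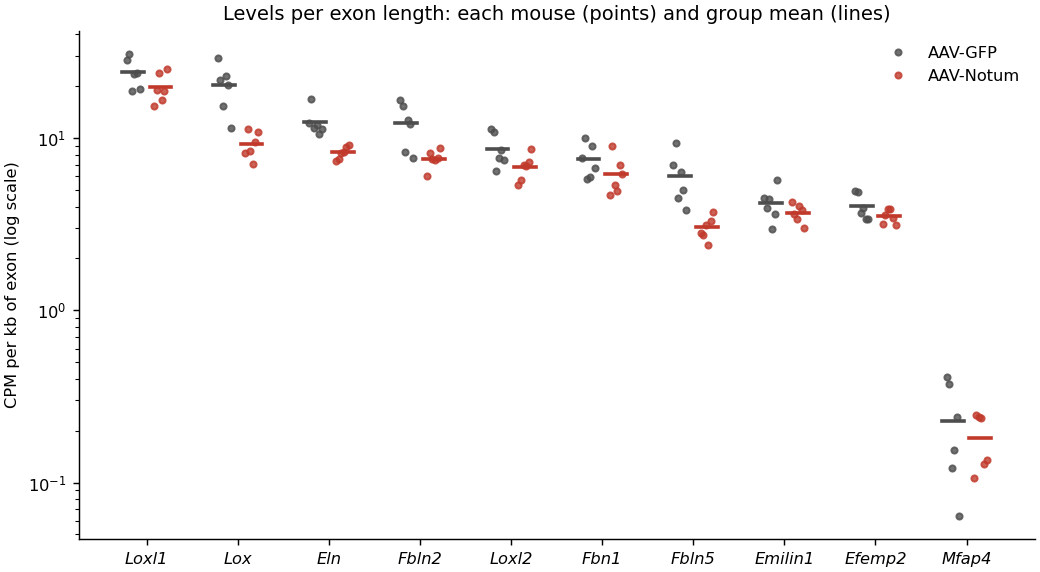
The vertical axis gives CPM per kb of exon on a log scale for each gene, ordered by the AAV-GFP mean, with a point per mouse (grey, AAV-GFP; red, AAV-Notum; 6 mice each) and a line at the group mean. Loxl1 and Lox lie close in AAV-GFP mice (24.1 and 20.2) and apart in AAV-Notum mice (19.8 and 9.22), and Mfap4 lies far below the other 9 genes in both groups.

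Mice differed in the same direction for most of the genes. AAV-GFP-2011 was among the 2 highest mice of its group for 8 of the 9 tested genes and AAV-GFP-2012 for 7, and AAV-GFP-2022 and AAV-GFP-2013 were among the 2 lowest for 7 and 6. Within AAV-Notum, AAV-Notum-2031 was among the 2 lowest for 7 genes and AAV-Notum-2042 among the 2 highest for 6. The summed level of all 10 genes ran from 447 to 723 CPM in AAV-GFP and from 326 to 438 CPM in AAV-Notum mice. The groups were apart by a narrow gap, between AAV-GFP-2022 (447) and AAV-Notum-2042 (438). Taken singly, only Eln, Lox and Fbln5 were without overlap. How often the sums of other sets of 10 genes are apart was not tested. The SD over mice was larger in AAV-GFP than in AAV-Notum for all 9 tested genes on the CPM scale. The coefficient of variation was larger for 7 of them, the exceptions being Loxl1 and Fbn1. The share of all genes with a larger SD or coefficient of variation in AAV-GFP is not given here. These counts are therefore not read as particular to the members.

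**Figure D3:**
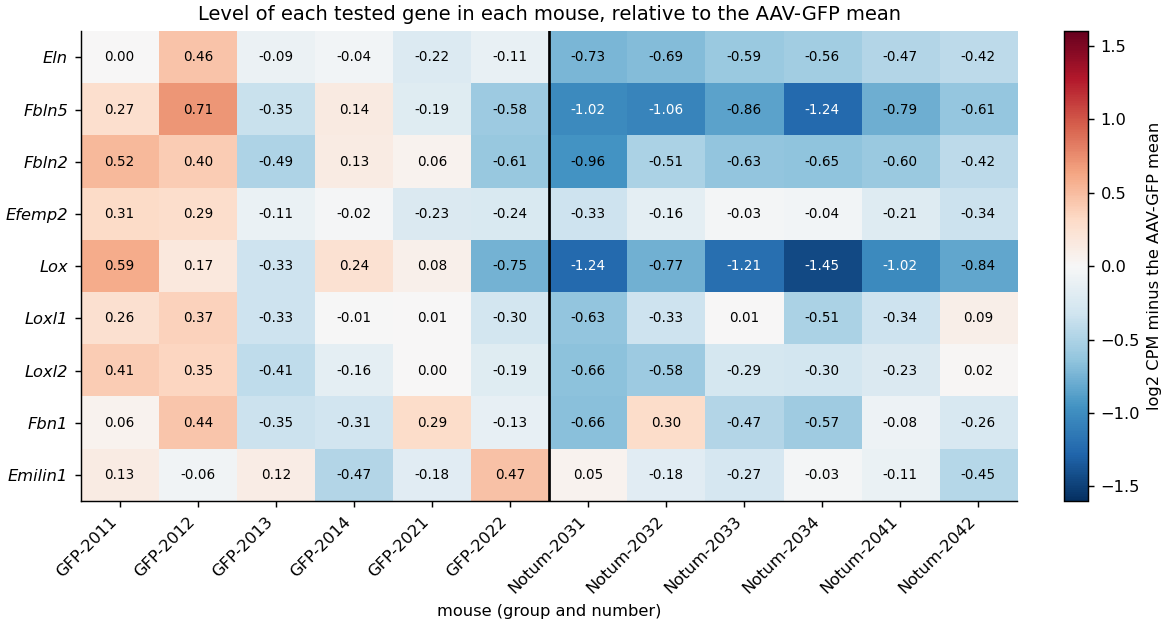
Each cell gives the log2 CPM of a tested gene (rows) in 1 mouse (columns, 6 AAV-GFP to the left of the black line and 6 AAV-Notum to the right) minus the AAV-GFP mean of that gene, red above and blue below it. The rows of Eln, Fbln5, Fbln2, Lox and, faintly, Efemp2 are blue in all 6 AAV-Notum mice, and the columns of AAV-GFP-2011 and AAV-GFP-2012 are red in most rows.

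After the group means were removed, Pearson's r over the 12 mice between a member's log2 CPM and the mean of the other tested members was 0.87 for Fbln2, 0.84 for Fbln5, 0.82 for Loxl2, 0.81 for Loxl1, 0.68 for Eln, 0.66 for Efemp2, 0.64 for Lox and 0.50 for Fbn1, and -0.45 for Emilin1. Between pairs of members, r ran from -0.60 (Lox and Emilin1) to 0.88 (Lox and Fbln2), with a median of 0.54. These values describe 12 libraries, and all genes of a library share its depth and its mix of cells, which differed between mice. The 5 genes outside the lists whose pattern over mice was most like the members' mean were Col3a1 (r = 0.95, Spearman's rho = 0.88), which encodes a fibrillar collagen, Lama2 (r = 0.95, rho = 0.94), a laminin chain of basement membranes, C1qtnf1 (r = 0.94, rho = 0.87), a secreted protein of the C1q and tumor necrosis factor family, Adamtsl5 (r = 0.93, rho = 0.90), a protein that binds fibrillin microfibrils, and Nes (r = 0.93, rho = 0.89), which encodes the intermediate filament nestin. Without the 2 mice farthest from the median, r was 0.90, 0.90, 0.88, 0.85 and 0.86 in that order.

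In whole tissue, fewer cells of a type and less RNA per cell cannot be told apart. Markers of stromal and vascular cells were therefore read beside these genes, and the vascular and fibroblast lists were also used as covariates in the fit. Of 12 smooth muscle and pericyte markers, 4 (Acta2, Smtn, Myl9 and Notch3) were lower at an unadjusted p under 0.05 and 0 higher. The log2 fold change was below 0 for 8 of the 12 and above 0 for 4. Over all 15585 genes tested, 9.54% were lower by that threshold. The summed level of the 12 markers ran from 526 to 818 CPM in AAV-GFP and from 524 to 719 CPM in AAV-Notum mice. Of 10 endothelial markers, 3 (Tek, Tie1 and Esam) were lower and 0 higher by that threshold, with sums of 767 to 1224 and 706 to 967 CPM. The log2 fold change was below 0 for 9 of the 10 and above 0 for 1. Of 12 fibroblast and progenitor markers, 2 (Pdgfra and Dcn) were lower and 0 higher by that threshold. The log2 fold change was below 0 for 7 of the 12 and above 0 for 5. The sums were 9490 to 22819 and 9226 to 16277 CPM, and most of each was Gsn, with means of 15439 and 10880 CPM. Of 10 macrophage markers, with log2 fold changes below 0 for 6 and above 0 for 4, the sums were 516 to 1588 and 917 to 1749 CPM. By that threshold 2 were lower and 0 higher. The 2 were Mrc1 (log2 fold change -0.40) and Cd163 (-0.94, edgeR adjusted p = 0.0696), and for Cd163 every AAV-Notum mouse lay below every AAV-GFP mouse. The part of macrophages in the differences of the members was not tested. No marker of these lists was without reads.

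With the mean log2 CPM of the smooth muscle and pericyte markers as a covariate, the log2 fold change was -1.04 for Lox, -0.71 for Fbln5, -0.47 for Fbln2 and -0.45 for Eln, and that of Loxl2 was -0.09. With the endothelial markers it was -0.88 for Lox, -0.57 for Fbln5, -0.36 for Fbln2, -0.42 for Eln and -0.11 for Loxl2. With the fibroblast and progenitor markers it was -1.13 for Lox, -0.97 for Fbln5, -0.68 for Fbln2, -0.57 for Eln and -0.34 for Loxl2, close to the values without a covariate. The mean of these markers hardly differed between groups (6.56 ± 0.318 and 6.54 ± 0.141 log2 CPM, SD), so this covariate could shift the values little. The part of fibroblasts in the differences was not tested. With the lymphoid markers, whose 15 tested genes all had a positive fold change that passed no test, the log2 fold change was -0.81 for Lox, -0.73 for Fbln5, -0.53 for Eln, -0.39 for Fbln2 and -0.19 for Loxl2. The unadjusted p of Lox, Fbln5, Eln and Fbln2 stayed under 0.05 in each of these fits, with p for Fbln2 of 0.0398, 0.0404, 0.00476 and 0.0322, and that of Loxl2 did not. The unadjusted p of Emilin1 came under 0.05 with the endothelial markers (log2 fold change -0.36) and with the lymphoid markers (-0.33). Without AAV-GFP-2011 and AAV-GFP-2014 together, 4 of the 9 genes were lower at an unadjusted p under 0.05, where 792 of all 15994 genes were.

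Other genes of the elastic fiber and microfibril, 18 in the list of which 17 were tested, had -0.30 as the median of their log2 fold changes. Of them 8 were lower and 1 was higher by the unadjusted threshold of 0.05, where 1487 of all 15585 genes were lower and 723 higher, and after adjustment 0 passed (smallest edgeR adjusted p = 0.102). Adamtsl2, which binds fibrillin and latent TGF-β binding proteins, was lower in every AAV-Notum mouse than in any AAV-GFP mouse, at 0.657 ± 0.265 against 2.35 ± 1.12 CPM (SD, n = 6 each; log2 fold change -1.83, standard error 0.37), on 6 to 70 reads per mouse. Ltbp3 and Ltbp4, which hold latent TGF-β in the matrix, had log2 fold changes of -0.64 and -0.43, and Ltbp3, the gene of the list with the highest mean CPM (a value not corrected for length), had 354 ± 105 and 227 ± 41.3 CPM (SD, n = 6 each). Adamtsl4, a fibrillin-binding protein, and Efemp1, or fibulin-3, had log2 fold changes of -0.71 and -0.73. The 1 gene that was higher, Ltbp2 (log2 fold change 0.60, edgeR adjusted p = 0.338), and Fbln1, Mfap5 and Ltbp1, which complete the 8 (-0.99, -0.56 and -0.38), were named after their values were seen. The call of Ltbp2 was lost when any 1 mouse other than AAV-GFP-2021, AAV-GFP-2022 or AAV-Notum-2042 was left out. Emilin3 was not tested, with at most 3 reads per mouse.

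Of the 10 other lysyl oxidases and proteins of their processing, 9 were tested, 2 were lower and 0 higher at an unadjusted p under 0.05, and the median log2 fold change was -0.02. Bmp1, the protease that activates the lysyl oxidase proenzyme, had 54.4 ± 10.4 CPM in AAV-GFP and 39.8 ± 5.10 CPM in AAV-Notum mice (SD, n = 6 each; log2 fold change -0.45, edgeR adjusted p = 0.173). Loxl4, a further lysyl oxidase of low level, had 1.87 ± 0.209 and 1.24 ± 0.432 CPM (log2 fold change -0.59, edgeR adjusted p = 0.301), and its unadjusted call was lost without AAV-GFP-2011, AAV-GFP-2021, AAV-Notum-2033 or AAV-Notum-2034, which leaves 1 lower gene. Without AAV-GFP-2012, 1 gene of the list (Postn) was higher. Postn, or periostin, which aids that activation and had the highest CPM of the list over all 12 mice, without correction for length, had a log2 fold change of 0.46 (edgeR adjusted p = 0.467). Of the 5 lysyl oxidases, Lox, Loxl2 and Loxl4 were lower by the unadjusted threshold, and Loxl3 had a log2 fold change of 0.01 (edgeR adjusted p = 0.977).

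Of 8 elastin-degrading proteases tested of 9, 0 passed an unadjusted p under 0.05 in edgeR (DESeq2, 1), and the median log2 fold change was -0.31. Ctsl, a lysosomal cysteine protease and the one with the highest mean CPM, without correction for length, had 393 ± 121 and 294 ± 55.2 CPM (SD, n = 6 each; log2 fold change -0.42, edgeR adjusted p = 0.368). The count of lower proteases was 3 without AAV-GFP-2022, 2 without AAV-GFP-2013, and 1 without AAV-GFP-2014 or without AAV-Notum-2042. Of 9 genes of elastin and fibrillin receptors, 3 were lower and 0 higher at an unadjusted p under 0.05, with a median log2 fold change of -0.03. Itga5, a chain of the fibronectin receptor that also binds fibrillin, had 30.8 ± 3.24 and 21.9 ± 3.02 CPM (log2 fold change -0.49, edgeR adjusted p = 0.105). Itgb5 and Itgb1, integrin β chains, had log2 fold changes of -0.72 and -0.31 (edgeR adjusted p = 0.214 and 0.236).

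**Figure D4:**
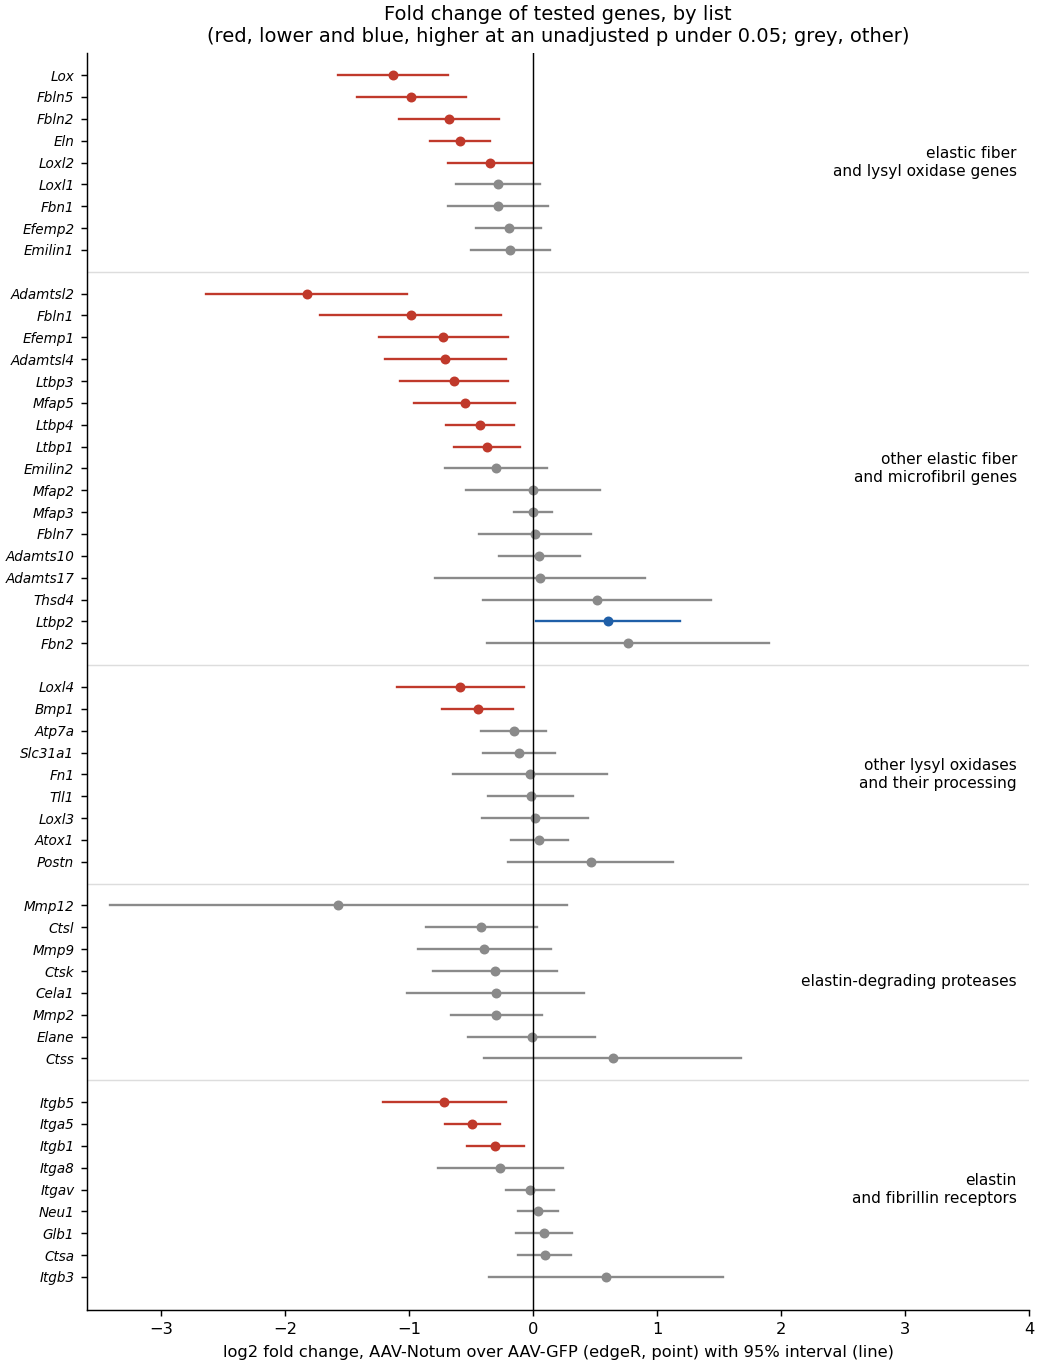
The horizontal axis gives the log2 fold change of AAV-Notum over AAV-GFP by edgeR for each tested gene of the 10 members and of 4 further lists, with its 95% interval as a line; red genes are lower and the blue gene, Ltbp2, higher at an unadjusted p under 0.05. All 9 tested members lie below 0, with intervals that leave out 0 for 5 of them.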

How the data were processed

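RNA-seq libraries of iWAT from 12 mice, 6 AAV-GFP and 6 AAV-Notum, were analysed, 1 library per mouse, with groups as labelled. Libraries were made by the authors with TruSeq kits. The submitters' processing notes name FastQC, STAR 2.3.1, DESeq2 and mm10, and the program and annotation behind the counts are not given in the sources used here. The deposited raw table holds counts of reads per gene. A further deposited table holds normalized log2 values, and undoing its size factors gave whole reads for 100% of values, within 0.01 of a read plus 1e-04 of the value. These are not the reads of the raw table: over the mice, the members had 100 to 105% of its reads, and only Mfap4 had equal reads in any mouse. The main tests used the raw counts.

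In R 4.3.3, edgeR 4.0.16 was run with filterByExpr (minimum count 10, minimum total 15), TMM, estimateDisp, glmQLFit and glmQLFTest, two-sided, with Benjamini-Hochberg adjustment over 15585 genes. CPM are scaled to TMM library sizes, and log2 CPM have a prior count of 2. Exact permutation tests used the mean log2 CPM over all assignments of mice to groups and stand unadjusted. Alternatives were DESeq2 1.42.0, limma 3.58.1 with voom, RLE factors, other filters, covariates, the normalized table and leaving out mice. Fits were tested on simulated data, and the outcome is not reported here. Positions and exon lengths are of GENCODE vM21 (GRCm38).

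The members and gene lists were chosen with earlier results of these data known. The genes named are the 10 members, from each other list those with an unadjusted p under 0.05 (the 5 of smallest p where more passed) with the one of highest mean CPM, and the 5 genes most like the members. Fbln2, Fbln5, Lox, Eln, Adamtsl2, Itga5, Notch3, Cd163 and C1qtnf1 also stand in lists of lower genes that the study drew from these samples, so their direction is not independent evidence. Marker genes were named after their values were seen. The p-values judge a difference between groups against the variation between mice.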

Additional observations from a re-analysis of the deposited data

Results flagged for a closer look

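Eln had 136.7 CPM in AAV-GFP-2012, where the other 5 AAV-GFP mice had 85.4 to 99.6 CPM. The gap to the nearest mouse was 0.72 of the range of the group, more than Dixon's test allows at the 95% level in a group of 6. By chance about 1 in 20 groups exceeds it, and this was 1 of the 20 groups looked at (the 10 genes in both groups). The RNA of this mouse was isolated 20 days after that of the others, and the part of that in its Eln level was not tested. Without this mouse the log2 fold change of Eln was -0.48.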

How the results depend on the processing

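Over 25 alternatives, 4 to 6 of the 9 members were lower at an unadjusted p under 0.05. The genes called lower among all genes ran from 694 of 15585 (smooth muscle covariate) to 2138 of 15707 (without AAV-GFP-2022). At that threshold limma-voom called 1328 of all 15585 genes lower and 1462 higher. With the endothelial covariate 790 were lower and 1085 higher. In every other setting more genes were lower than higher. For Lox, Fbln5, Eln and Fbln2 the log2 fold changes kept their sign and stayed under that threshold in all 25, from -1.25 to -0.81, -1.08 to -0.57, -0.63 to -0.42 and -0.78 to -0.36. The number of members with an adjusted p under 0.05 was 0 with edgeR, 4 with DESeq2 and 0 to 4 on leaving out single mice, where the 4 (Lox, Fbln5, Eln and Fbln2) were called without AAV-GFP-2022, a setting in which 146 of 15707 genes in all were called lower, against 8 of 15585 with all mice. Over the alternatives the adjusted p ran from 8.97e-05 to 0.323 for Lox, 3.24e-04 to 0.344 for Eln, 0.00102 to 0.427 for Fbln5 and 0.0301 to 0.585 for Fbln2. The difference of Mfap4 ran from -0.35 to 0.0332 on leaving out single mice. The cause of these shifts was not tested. Smooth muscle and endothelial covariates were chosen after seeing the data. No paired analysis was made, because the labels used here do not pair a mouse of 1 group with a mouse of the other. Mfap4, at 2 to 14 reads per mouse, is limited by depth.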
